A study of Mus musculus with 2 samples.

Results

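The peaks described here are places in intergenic DNA at which the deposited table names an LTR element. Each is listed with a higher signal for a Dnmt1 fusion to Dam than for Dam alone. A peak was taken when its list of repeat classes included LTR but not SINE and its location was given as intergenic. This rule found 566 of the 8226 deposited peaks, or 13.5% (95% interval 12.5 to 14.6) of the 4180 intergenic ones. The remaining 3614 intergenic peaks were the comparison. The choice of peaks used no height, so the heights below are measurements independent of the rule.

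LTR retroelements are endogenous retroviruses and their relatives, in which long terminal repeats flank the coding region and carry its promoter. Recombination between the terminal repeats leaves solitary LTRs, which are spread through the space between genes. Mouse LTR families differ in when they are active: ERV-L elements are transcribed in early cleavage, whereas intracisternal A particles keep much of their DNA methylation through preimplantation development. Dnmt1 is the maintenance methyltransferase that copies CpG methylation onto newly replicated DNA. The table gives repeat classes and no families, so these groups could not be separated, and the sequences under the peaks were not analysed here.

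DamID fuses a protein to Dam, which methylates adenine in GATC sequences near the places that the protein visits. The 2 libraries were made from genomic DNA of mouse embryos at the 4- to 8-cell stage, 50 injected with a Dnmt1-V5-Dam construct and 50 with Dam alone. The mothers were hormone-treated mice of the BCF1 strain (C57BL/6 x CBA/CA) aged 5 weeks, and the labels name no deletion or mutant allele in any embryo. Embryos were pooled within each library, so there is 1 library per group, no replicate spread and no test between the groups.

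Each peak had 1 height per library, a whole number whose scale is not stated. The total reads per library are unknown. Every listed peak was at least 7 high in Dnmt1-Dam, at least 6 above Dam-only and at least 2 times as high, so the list itself is selected for a higher Dnmt1-Dam height. Intervals are 95% intervals over peaks and cover counting error only. How reads that fit several copies of a repeat were placed is not given in the sources used here, and its part in the heights was not tested.

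At the LTR peaks, signal in the Dnmt1-Dam library was mostly just above the lowest listed height, and signal in the Dam-only library was mostly at its lowest. Dnmt1-Dam heights ran from 7 to 60 with a median of 9 (interquartile range 7 to 10). The lowest height, 7, was found at 166 of the 566 peaks (29.3%), and 11 peaks (1.94%) reached 20 or more. Dam-only heights ran from 1 to 9, and 443 peaks (78.3%, 74.6 to 81.6) were at 1. At 23 peaks (4.06%) the Dam-only height was 4 or more. These 23 had a median Dnmt1-Dam height of 14 (range 10 to 31), where the 443 at a Dam-only height of 1 had a median of 8 (range 7 to 60). The selection of the list sets part of this gap, since a peak with a Dam-only height of 4 needs at least 10 in Dnmt1-Dam to be listed.

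**Figure D1:**
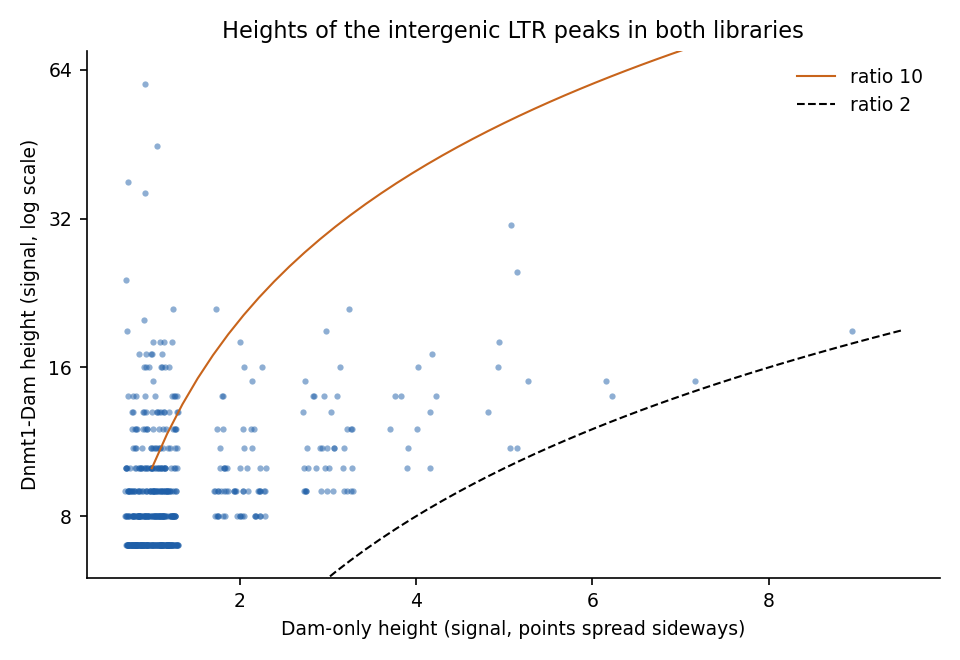
Each point is 1 of the 566 intergenic LTR peaks, with its Dam-only height on the horizontal axis (spread sideways for legibility) and its Dnmt1-Dam height on the vertical log axis, both in units of signal. Most points stack at a Dam-only height of 1, the highest reaches 60, and the solid and dashed lines mark ratios of 10 and 2.

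The heights at LTR elements were close to those of the other intergenic peaks. Those also had a median Dnmt1-Dam height of 9 (interquartile range 7 to 11), and 77.1% (75.7 to 78.5) were at a Dam-only height of 1. A height of 15 or more was reached by 44 LTR peaks (7.77%, 5.71 to 10.3) and by 295 of the others (8.16%, 7.29 to 9.10). Over all listed peaks the share was 8.66%, and over all intergenic peaks 8.11%. The difference between LTR and other intergenic peaks was -0.39 percentage points (-2.54 to 2.25). A Dnmt1-Dam height 10 or more times the Dam-only height was found at 123 LTR peaks (21.7%, 18.4 to 25.4), beside 23.4% of all listed peaks and 23.2% of all intergenic peaks. Against the other intergenic peaks alone the difference was -1.71 points (-5.20 to 2.12). Both intervals contain 0 and limit the difference in either direction to a few points. Among LTR peaks, only that assigned to Wdr41 (21 in Dnmt1-Dam, 2 in Dam-only) reached a ratio of 10 with a Dam-only height above 1. The ratio call was thus nearly a Dnmt1-Dam height of 10 or more at the lowest Dam-only height. The mean log2 height was 3.20 (SD between peaks 0.43) at LTR elements and 3.22 (SD 0.43) at the others.

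**Figure D2:**
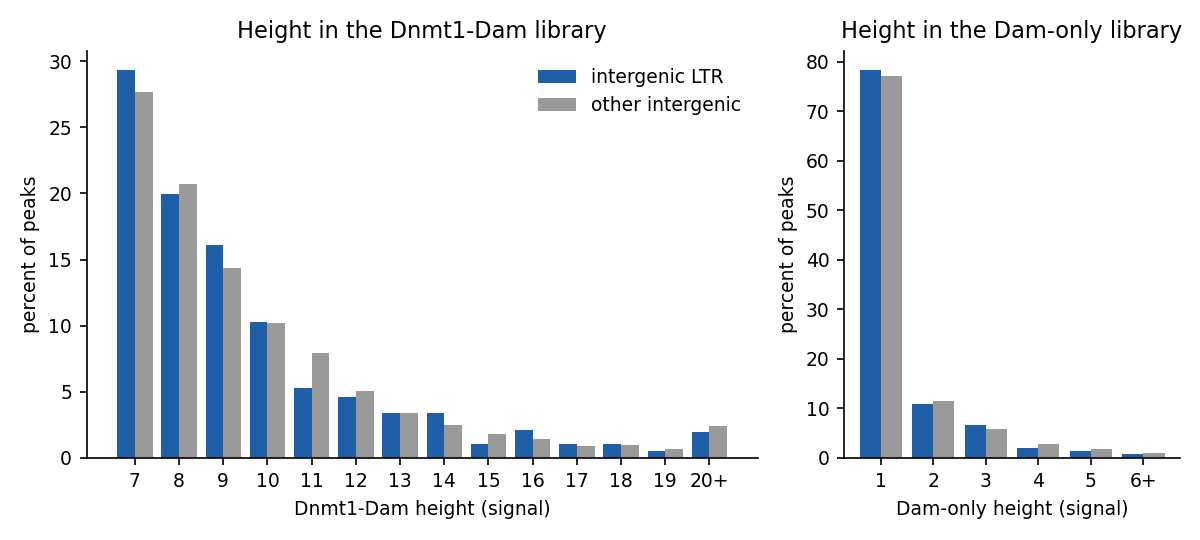
Bars give the percent of peaks at each height, for the 566 intergenic LTR peaks (blue) and the 3614 other intergenic peaks (gray), for Dnmt1-Dam on the left and Dam-only on the right. The last bar on each side pools the highest values, and blue and gray follow one another, with 29.3% and 27.7% at the lowest Dnmt1-Dam height.

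The highest LTR peaks were few and mostly without Dam-only signal above the lowest value. The highest was 60 against 1, on chromosome 15 at 11897761 (mm9, as are all positions here), 13.3 kb downstream of Sub1, which encodes a transcriptional coactivator, and the table names LTR at it more than once. A pair 90 bp apart on chromosome 2 followed, at 110225461 (45 against 1) and 110225371 (36 against 1), 22.3 and 22.2 kb upstream of Fibin, named 1110018M03Rik in the file. A peak of 38 against 1 lay on chromosome 9 at 122472351, 182 kb downstream of Abhd5, a cofactor of triglyceride lipolysis. These 4 were the only LTR peaks above 31.

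The next group combined both patterns of Dam-only height. A peak of 31 against 5 lay on chromosome 1 at 104785081, assigned to the cadherin gene Cdh20 from 1880 kb upstream, the longest distance among the LTR peaks. One of 25 against 5 lay on chromosome 10 at 90970081, in a CpG island. It was assigned to Tmpo, which encodes lamina-associated proteins, from 336 kb upstream, and both LINE and LTR are named there. At Smarca2, an ATPase gene of the SWI/SNF chromatin remodelers, a peak of 24 against 1 lay 122 kb upstream on chromosome 19 at 26557431, and a second of 17 against 1 lay 110 bp from it.

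Below these, 3 peaks stood at 21. They were assigned to Iars, an aminoacyl-tRNA synthetase gene (21 against 1, chromosome 13 at 49909921), to Wdr41 (21 against 2, chromosome 13 at 95701301) and to 4931406B18Rik (21 against 3, chromosome 7 at 50747211). The last lay 0.203 kb beyond its gene, the shortest distance among the LTR peaks. A peak 173 kb downstream of Gask1b had 20 against 1, and another 90 bp from it had 11 against 3. One 33.8 kb upstream of Asb18 had 19 against 1. Dam-only signal was highest at a peak 22.2 kb downstream of Nhlrc1, a ubiquitin ligase gene, with 19 against 9. It was 7 at a peak assigned to 1700017B05Rik (15 in Dnmt1-Dam) and 6 at one assigned to BC049762 (15). It was also 6 at a peak (14) 206 kb upstream of Prox1, a homeobox gene of lymphatic and lens development. The ratios of these last 4 peaks, from 2.11 to 2.50, lay near the limit of 2 that the list sets.

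Most of the LTR peaks lay in LTR sequence with no other repeat class named. The table names LTR once and nothing else at 522 peaks, and LTR several times and nothing else at 23. Another class stands beside LTR at 21 peaks (3.71%, 2.31 to 5.62): LINE at 11, simple repeats at 5, DNA transposons at 3 and the class called Other at 2. The median Dnmt1-Dam height was 9 for the peaks with LTR once, 9 for those with LTR several times and 10 for the 11 with LINE.

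LTR peaks within 1 kb of each other were common, and most were closer together than the length of a sequenced fragment. In all, 60 of the 566 (10.6%, 8.19 to 13.4) had another LTR peak within 1 kb, and they formed 28 runs, 26 of them pairs. The runs spanned 80 to 410 bp, with a median of 110 bp, where fragments of around 300 bp were size-selected. Such neighbors can share fragments and are not independent sites. Within a run the highest peak was between 1 and 2.71 times the lowest, with a median of 1.27. Any peak, LTR or not, stood within 1 kb of 12.9% of LTR peaks and of 12.2% of the other intergenic peaks, a difference of 0.69 points (-2.05 to 3.88).

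The largest run held 5 LTR peaks within 410 bp on chromosome 1, from 103022471 to 103022881, assigned to Cntnap5b, a gene of the contactin-associated adhesion proteins that the file names C230078M14Rik. From left to right their Dnmt1-Dam heights were 12, 10, 7, 14 and 14, all against a Dam-only height of 1. They lay 640 kb downstream of the gene, whose other 10 peaks had no LTR named. A run of 3 lay 100 kb upstream of Cul3, the scaffold gene of a ubiquitin ligase family, on chromosome 1 from 80437441 to 80437641, with heights of 10, 9 and 8 against 1. At 15 places an LTR peak shared a 1 kb run with a peak outside the class. In the highest of these, near Bcas1 on chromosome 2, the LTR peak at 170128381 had 18 against 1, and a peak 100 bp away with no repeat named had 66 against 1. In a run assigned to Dppa4, a chromatin factor gene of pluripotent cells, the LTR peak had 14 against 4 and its repeat-free neighbor 120 bp away 8 against 1.

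Beyond 1 kb, LTR peaks were seldom close to one another. Another LTR peak stood within 100 kb of 89 of the 566 (15.7%, 12.8 to 18.99). With 1 peak kept per 1 kb run this was 5.69% (3.87 to 8.03), so most of the 89 were the close pairs. Of the other intergenic peaks, 7.28% (6.45 to 8.17) had an LTR peak within 100 kb, with every peak kept, as for the 15.7%. Cxcr4, a chemokine receptor gene, had 3 separate LTR peaks, of 18, 7 and 7 against 1, spread from 75.4 kb downstream to 289 kb upstream, and no other peak.

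Distance to genes set LTR peaks between those of SINEs and LINEs. The median distance from the body of the assigned gene was 84.3 kb (68.5 to 100.03) for LTR peaks and 79.6 kb (74.5 to 85.9) for the other intergenic peaks. It was 52.0 kb (45.7 to 60.7) for the 629 intergenic peaks naming a SINE, and 128 kb (105 to 149) for the 419 naming a LINE and neither SINE nor LTR. More than 100 kb from the gene were 45.9% of LTR peaks, 34.2% of SINE peaks and 56.3% of LINE peaks. The LTR share was 11.8 points above that of SINEs (6.20 to 17.2) and 10.4 points below that of LINEs (the difference was -10.4, -16.6 to -4.07). Against all other intergenic peaks it differed by 0.50 points (-3.88 to 4.93), and against the 2354 repeat-free ones by -0.45 (-4.99 to 4.13).

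**Figure D3:**
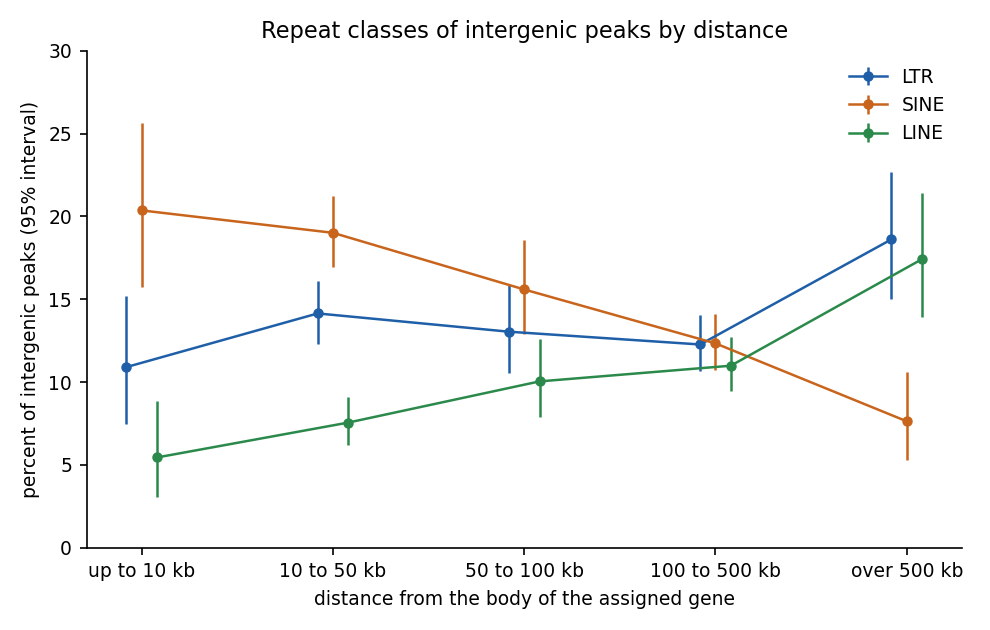
Points give the percent of intergenic peaks whose repeat is an LTR element, a SINE or a LINE in 5 ranges of distance from the body of the assigned gene, with exact 95% intervals, and lines only join the ranges. The LTR share stays between 10.9% and 14.1% up to 500 kb and is 18.6% beyond it, while the SINE share is lower and the LINE share higher in the farther ranges.

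Farthest from genes, LTR elements and LINEs both made up a larger share of the peaks. Over 500 kb from the assigned gene, LTR peaks were 78 of 419 intergenic peaks (18.6%, 15.0 to 22.7). Between 100 and 500 kb they were 182 of 1483 (12.3%, 10.6 to 14.1). For LINE peaks the counts were 73 of 419 (17.4%, 13.9 to 21.4) and 163 of 1483 (11.0%, 9.44 to 12.7). Counted the other way, 13.8% of LTR peaks and 9.44% of the other intergenic peaks lay that far out, a difference of 4.35 points (1.56 to 7.56). LTR elements shared this with LINEs, of which 17.4% lay over 500 kb out (LTR minus LINE -3.64 points, -8.35 to 0.90), while LTR minus SINE was 8.69 points (5.41 to 12.1). This limit was chosen after the distances had been seen. The 78 peaks were assigned to 69 genes on 20 chromosomes, with at most 5 to a gene, and 64 of them were at a Dam-only height of 1. Their median Dnmt1-Dam height was 8 (range 7 to 31). With peaks of height 9 or more the difference was 1.79 points (-1.71 to 6.18). How much of this DNA is LTR sequence was not analysed here, so the share is no enrichment.

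LTR peaks lay upstream of the assigned gene in 318 cases (56.2%, 52.0 to 60.3). Their share minus that of SINE peaks was -6.14 points (-11.7 to -0.56), and minus that of LINE peaks -6.82 points (-12.9 to -0.61). It differed from the repeat-free peaks by -0.66 (-5.23 to 3.85). The nearest 10 kb upstream of a gene belong to the promoter classes, so these shares also depend on how many peaks lie close to the downstream end. Among peaks over 10 kb from the gene the upstream shares were 59.3% (55.0 to 63.5) for LTR, 68.4% (64.4 to 72.2) for SINE and 65.3% (60.5 to 69.98) for LINE. There the LTR interval overlapped that of LINE and not that of SINE. Differences were not computed beyond 10 kb, so that against LINE peaks may depend on the peaks closer in.

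**Figure D4:**
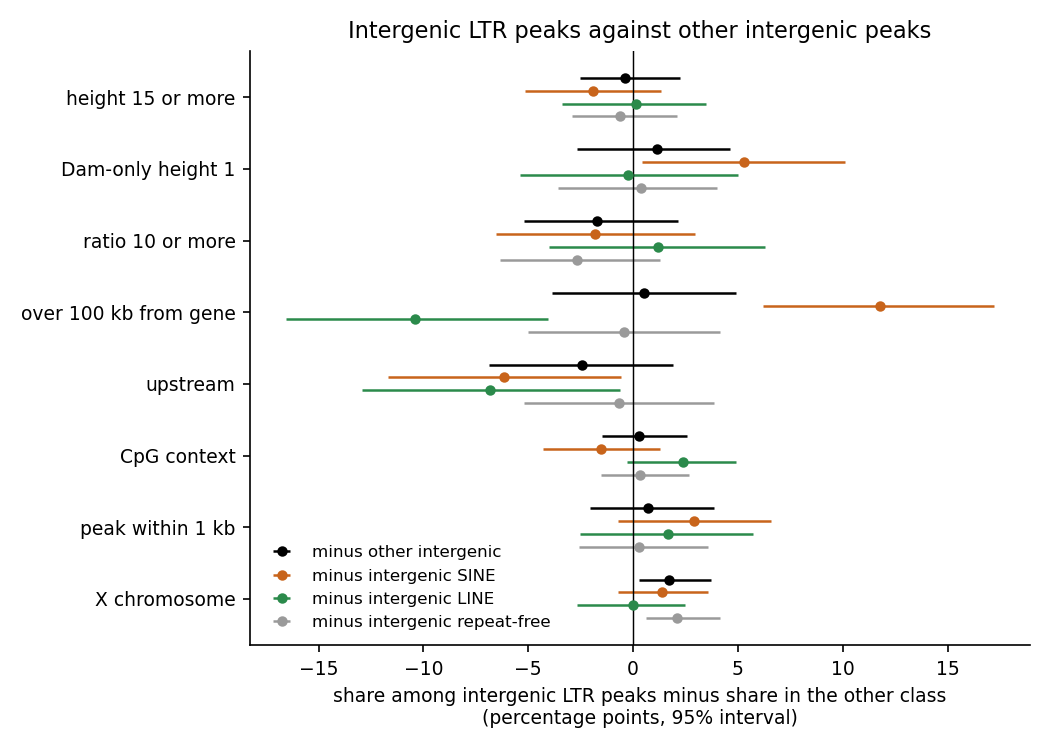
Points give the share of intergenic LTR peaks with each property minus the share in another class of intergenic peaks, in percentage points, with Newcombe 95% intervals, and colors mark the class that was subtracted. The intervals exclude 0 for distance and upstream position against SINEs and LINEs, for Dam-only height 1 against SINEs, and for the X chromosome against the other and the repeat-free intergenic peaks.

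More of the LTR peaks than of the SINE peaks were at the lowest Dam-only height. The Dam-only height was 1 at 78.3% of LTR peaks and 73.0% of SINE peaks, a difference of 5.30 points (0.41 to 10.1). Against LINE peaks it was -0.25 points (-5.38 to 5.01), and against the 235 LTR peaks inside gene bodies 3.80 (-2.47 to 10.5). The selection of the list enters these shares, since a listed peak of Dnmt1-Dam height 7 can only have a Dam-only height of 1. That height was found at 29.3% of LTR peaks and 22.7% of SINE peaks, and its part in the difference was not tested. LTR peaks in gene bodies had a median Dnmt1-Dam height of 8, and 5.96% reached 15 or more, and intergenic minus gene body was 1.82 points (-2.44 to 5.27). For 8 properties against 4 intergenic groups, and 6 of these properties against LTR peaks in gene bodies, 38 differences were computed, and 7 intervals excluded 0. Not in this count are the share over 500 kb, where 3 of 4 intervals excluded 0, and the LTR shares on the X and by CpG context and height. The intervals were not adjusted for their number, and they treat neighboring peaks as independent.

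By chromosome, the interval of the LTR share of intergenic peaks contained the autosomal share on 18 of 19 autosomes. The share was larger on chromosome 1 and on the X. The autosomes held 543, or 0.220 per Mb (0.202 to 0.239). The density was highest on chromosome 1, with 58 peaks or 0.295 per Mb (0.224 to 0.381), and lowest on chromosome 6, with 22 or 0.147 (0.0924 to 0.223). Chromosome 1 alone of the 19 autosomes had an interval that did not contain the autosomal density. Its 58 peaks include the runs at Cntnap5b (5 peaks within 410 bp) and Cul3 (3 within 200 bp), whose members are not independent sites. Neither densities nor shares of single autosomes were recomputed with 1 peak per run, so this exception may rest on such runs. LTR elements were named at 13.3% (12.3 to 14.4) of autosomal intergenic peaks, from 8.41% on chromosome 19 to 18.2% (14.1 to 22.9) on chromosome 1.

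The X chromosome held 23 LTR peaks, or 0.138 per Mb, which is 0.628 times the autosomal density (0.395 to 0.952). For the other intergenic peaks the ratio was 0.357 (0.285 to 0.443), for repeat-free ones 0.296 (0.216 to 0.395), for LINEs 0.627 (0.361 to 1.02) and for SINEs 0.412 (0.238 to 0.665). LTR elements were thus named at 21.3% (14.0 to 30.2) of the 108 intergenic X peaks, 7.96 points above the autosomes (1.21 to 16.7). This difference was computed with the X counts already known. At heights of 9 or more it was 7.59 points (-1.29 to 20.4). With height 15 or more, where 1 LTR peak on the X is left, it was -0.49 points (-11.5 to 34.2), and the density ratio was 0.345 (0.0085 to 2.03). The 23 had Dnmt1-Dam heights of 7 to 15 with a median of 8, and 20 of them had a Dam-only height of 1. The highest, of 15 against 2, lay at 7078021 and was assigned to Ppp1r3f, a phosphatase subunit gene. The sex of the embryos and the LTR content of the X were not analysed here.

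**Figure D5:**
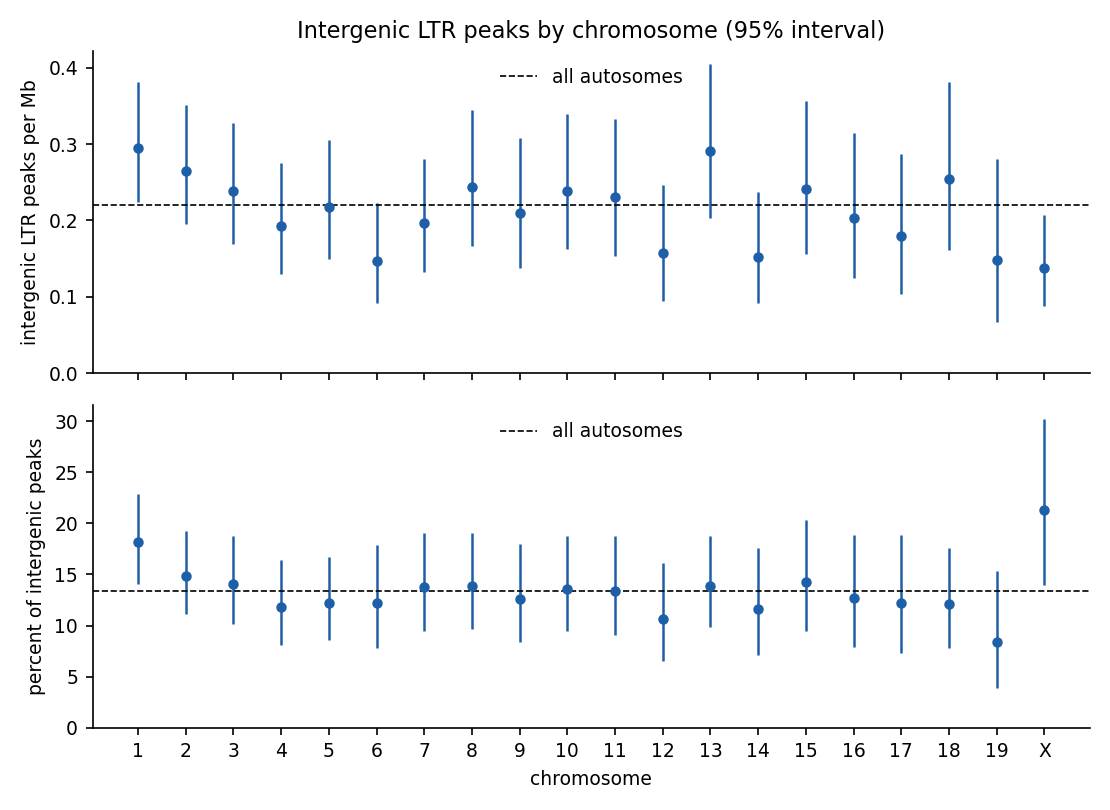
Points give the intergenic LTR peaks per Mb, by chromosome and up to its last peak (top), and their percent of that chromosome's intergenic peaks (bottom), with exact 95% intervals, and dashed lines mark all autosomes together. The X chromosome has a density of 0.138 per Mb, below the dashed line at 0.220, and a share of 21.3%, above the dashed line at 13.3%.

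A CpG island context was rare at LTR peaks. Of the 566, 2 lay in an island, 19 in a shore and 10 in a shelf, together 31 (5.48%, 3.75 to 7.68), against 5.20% (4.50 to 5.98) of the other intergenic peaks. Besides the island peak assigned to Tmpo, the other was 10 against 2, assigned to Dnajc1, a co-chaperone gene, on chromosome 2 at 18392761. The highest in a shore was the peak near Bcas1 (18 against 1), and the highest in a shelf, assigned to the sialyltransferase gene St8sia6, had 10 against 1. Among peaks of height 9 or more the shares were 8.01% (5.15 to 11.8) and 5.10% (4.14 to 6.19), a difference of 2.92 points whose interval narrowly excluded 0 (0.083 to 6.75). The LTR peaks counted there include 2 shore peaks 130 bp apart near F11, of heights 14 and 9, which the interval treats as independent. This difference was not recomputed with 1 peak per run. Among peaks of height 15 or more, 5 of 44 LTR peaks (11.4%, 3.79 to 24.6) and 14 of 295 others (4.75%, 2.62 to 7.83) had such a context, a difference of 6.62 points (-0.49 to 19.4).

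The LTR peaks were assigned to 502 genes, of which 445 had 1, 52 had 2 and 5 had 3 or more. No other peak was assigned to 200 of these genes. After Cntnap5b, 3 LTR peaks each were assigned to Cxcr4, Cul3, 1700009N14Rik and Zfhx3, a homeobox transcription factor gene. At Zfhx3 a pair 100 bp apart had 13 and 8 against 1, and another peak on the same side, 401 kb upstream, had 9 against 1. At 1700009N14Rik the heights were 12 against 1, 7 against 1 and 9 against 2, at 883, 365 and 39.7 kb upstream.

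Groups of genes with known links to retroelements took few LTR peaks, and few of the other intergenic peaks. Of 32 genes that silence retroelements or handle DNA methylation, none had an LTR peak. Of the 3614 other intergenic peaks, 5 (0.138%) were assigned to this group. Of 19 genes derived from retroviruses or LTR elements (18 of them found in the gene table), none had an LTR peak, where 6 other intergenic peaks (0.166%) were assigned. A count of 0 of 566 allows a share of up to 0.530% at 3 counts, and its exact interval ends at 0.650%. Both shares of the other intergenic peaks lie below these limits, so the counts of 0 show no shortage. Genes of early cleavage linked to ERV-L activity had 3 (0.530%, 0.109 to 1.54), against 9 of the others (0.249%, 0.114 to 0.472). Besides the peak assigned to Dppa4, 867 kb upstream of that gene, these were Pramel6 with 9 against 3 at 1.95 kb downstream and Duxbl1 with 8 against 1 at 83.0 kb downstream. None of the 3 reached a height of 15.

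Gene families took a few LTR peaks each. Symbols beginning with Zfp, most of them zinc finger genes, took 9 LTR peaks (1.59%, 0.730 to 2.997) against 1.83% of the other intergenic peaks, and the highest, at Zfp385b, Zfp169 and Zfpm2, were 10 against 1 each. Solute carrier genes took 7 (1.24%) against 1.91%, led by Slc22a16 with 9 against 1. Cadherin and protocadherin genes took 4 (0.707%) against 1.25%, led by Cdh20 and by Pcdh10 with 14 against 4. These 4 peaks were assigned to 3 genes from 323 to 1880 kb away. Sox, Fox, Pax and Tbx genes took 4 (0.707%, 0.193 to 1.80) against 1.41% (1.05 to 1.85), led by Tbx15 with 11 against 1. Olfactory receptor genes took 3 (0.530%) against 0.470%, the highest with 12 against 1 at Olfr371. Vomeronasal receptor genes took 2 (0.353%) against 0.277%, of 8 against 1 each at Vmn1r195 and Vmn1r206. With counts of 9 or fewer, the intervals of these families were wide and overlapped those of the other intergenic peaks. An assigned gene is the one the table lists for the peak, and no expression was measured in these files.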

How the data were processed

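Genomic DNA of 2 libraries, Dnmt1-Dam and Dam-only, was sequenced after 15 cycles of PCR, per the labels' protocols. CASAVA, BWA and mm9 are named in the submitters' processing notes. The peak caller, its thresholds, duplicate handling and any scaling are not stated there or elsewhere in the sources used here. For each peak the deposited table holds 1 position on a 10 bp grid, 1 signal height per library, a location class, repeat classes and an assigned gene. The deposited heights were treated as signal, not as read counts, since their scale is not stated, and no depth is known.

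Peaks were compared by shares with exact Clopper-Pearson intervals, differences of shares with Newcombe intervals, medians with order-statistic intervals and densities with exact Poisson intervals. These were computed with SciPy 1.17.1 in Python 3.11.15. The intervals of shares, differences, medians and density ratios were tried on simulated independent values. Those of densities were not, and the simulations held no tied heights and no neighboring peaks. No p-value was computed. Names came from a RefSeq gene table of GRCm38.p6, used for names only, which matched 564 of 566 peaks. Named items were the 12 highest peaks, the 5 with the highest Dam-only height, the 8 genes with the most LTR peaks, extremes of distance, CpG context, spacing and X, and those of 3 gene lists and 6 families. The members and lists were chosen with earlier results of these data known. Alternatives were stricter heights, 1 peak per 1 kb run, other definitions of the class, pseudocounts, scaling and distance limits.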

Additional observations from a re-analysis of the deposited data

How the results depend on the processing

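Of 61 recalculated values, 54 stayed within the interval of the reported value and 7 lay outside it. The sign turned in 6 differences, of which 5 had an interval that contained 0 to begin with: the Dam-only share (height 9 or more), the share over 100 kb (height 9 or more, height 15 or more, and a limit of 50 kb) and CpG context (LTR as the only class). With peaks of height 15 or more, the X to autosome density ratio of LTR peaks was 0.345 and the LTR share on the X differed from the autosomes by -0.49 points, both resting on 1 LTR peak on the X. The difference in CpG context from the other intergenic peaks was 2.92 points with height 9 or more (0.083 to 6.75) and 6.62 points with height 15 or more. The cause was not tested. The share of LTR peaks with another within 100 kb was 5.69% with 1 peak per 1 kb run, which removes the close pairs, and 19.8% within 200 kb, by its wider limit. Without a pseudocount the difference in median log2 ratio of heights was -0.19, where it was 0 with a pseudocount of 1. The limit of 500 kb and the X share were chosen after seeing the data. No paired analysis was possible because each group is 1 library, and no replicate could be left out. Unknown depth, the floor of 7 in Dnmt1-Dam and the lowest Dam-only height of 1 limit what the heights and ratios can show.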

Other observations

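The rule left out 18 intergenic peaks that name both LTR and SINE. Their Dnmt1-Dam heights ran from 7 to 22 with a median of 11, 13 of them had a Dam-only height of 1, and 3 reached 15 or more. With them the intergenic peaks naming an LTR number 584, of which 47 reached 15 or more.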
